A study of Mus musculus with 35 samples.

Results

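The 40 genes described here take glucose from the cell surface to the point where its carbon enters the mitochondrion. They are 2 glucose transporters, 17 enzymes of glycolysis, 4 enzymes that set the level of fructose-2,6-bisphosphate, 6 genes of lactate production and transport, 2 subunits of the mitochondrial pyruvate carrier, and 9 genes of the pyruvate dehydrogenase complex and its regulation. The genes were taken by function from the 54119 annotated genes of the files. All 40 passed the filter on low counts in each of the 12 comparisons made across genes.

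The 35 libraries are bulk RNA-seq of ACSA2+ cells, enriched on magnetic columns. ACSA2 is an epitope on the surface of astrocytes that Atp1b2 encodes. Male mice of the strain C57BL/6JRj provided 3 brain regions, the hypothalamus, the hippocampus and the cortex. Control animals ate standard chow (SC), and the others ate food rich in fat and sugar (HFHS, given as 58% in the labels). The diets began at 8 to 9 weeks of age and lasted 4 months, and each replicate pooled the tissue of 2 mice. There were 6 SC and 5 HFHS replicates of hypothalamus, 5 and 7 of hippocampus, and 6 and 6 of cortex. The column type was MS for hypothalamus and hippocampus but LS, with more reagent, for cortex, so that column and region cannot be told apart in any comparison with cortex. The labels do not say whether the regions of a replicate came from the same mice, and a pool's own spread between mice is not seen.

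Glycolysis splits glucose into pyruvate in the cytosol. Its pace is set mainly by hexokinase, which traps glucose as a phosphate, and by phosphofructokinase, which fructose-2,6-bisphosphate activates. Pyruvate is then either reduced to lactate by lactate dehydrogenase and exported by monocarboxylate carriers, or imported into mitochondria and oxidised by the pyruvate dehydrogenase complex, which kinases of the Pdk family switch off. Astrocytes are known for a high glycolytic capacity and for releasing lactate that neurons can take up, a proposal known as the astrocyte-neuron lactate shuttle.

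The libraries held between 47578560 and 65982495 estimated reads. All 12 astrocyte markers were found in each region, and their summed level lay between 5230 and 11400 TPM (a level corrected for transcript length and scaled to the same total in each library) in cortex, between 2620 and 10500 TPM in hypothalamus and between 1420 and 6080 TPM in hippocampus. The 8 oligodendrocyte markers summed to between 6580 and 58300 TPM in cortex, between 36200 and 96900 TPM in hypothalamus and between 32700 and 84100 TPM in hippocampus, so that every region held more myelin transcript than astrocyte marker transcript at the median. Markers of choroid plexus, the secretory tissue of the ventricles, reached 33200 TPM in hippocampus, and those of ependymal cells reached 5190 TPM in hypothalamus. Since the libraries are bulk samples, fewer cells of a type and less RNA per cell cannot be told apart. In hypothalamus on HFHS, replicate 2 stood apart, with an astrocyte marker sum of 10500 TPM. Cortex SC 6 and cortex HFHS 6 had mean transcript lengths, weighted by reads, of 1922 and 2179 bases. The next shortest library, hypothalamus SC 6, had 2483 bases, close to the 2530 bases of the library after it. These 3 are called the short libraries. Where a called region difference named for 1 of the 40 genes moved by over 1.5 times or lost its call without them, the value without them is given beside it or below.

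Glycolytic transcripts were among the most abundant of the sorted cells. The median member had a mean log2 CPM (a count scaled to library size, with no correction for length) of 7.42, compared with 2.69 for all genes tested, and 25 of the 40 were in the upper 10% of genes by abundance. In TPM, which allows genes to be compared, Aldoc, the aldolase isoenzyme of brain, had the highest mean over all libraries, at 4429 TPM. On SC its median was the highest of the 40 in cortex, at 7375 TPM, and in hypothalamus, at 1388 TPM with Gapdh next at 1298 TPM. In hippocampus on SC its median of 1074 TPM lay below those of Bsg (2027 TPM), Gapdh (1677 TPM), Aldoa (1551 TPM) and Ldhb (1095 TPM). Over all libraries Bsg, the chaperone that carries lactate transporters to the membrane, followed at 1841 TPM and Gapdh, which makes the first NADH of the pathway, at 1834 TPM, with overlapping ranges. At the low end, Hk2, the hexokinase regulated by insulin in muscle and fat, had 0.806 TPM, Tigar, a fructose-2,6-bisphosphatase, 1.27 TPM and Slc16a3, which encodes the lactate exporter MCT4, 3.79 TPM. Transcripts of the 40 genes summed to a median of 9729 TPM in hypothalamus, 15210 TPM in hippocampus and 23500 TPM in cortex on SC. Aldoc alone supplied a median of 14.3%, 7.14% and 33.7% of those sums.

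**Figure D1:**
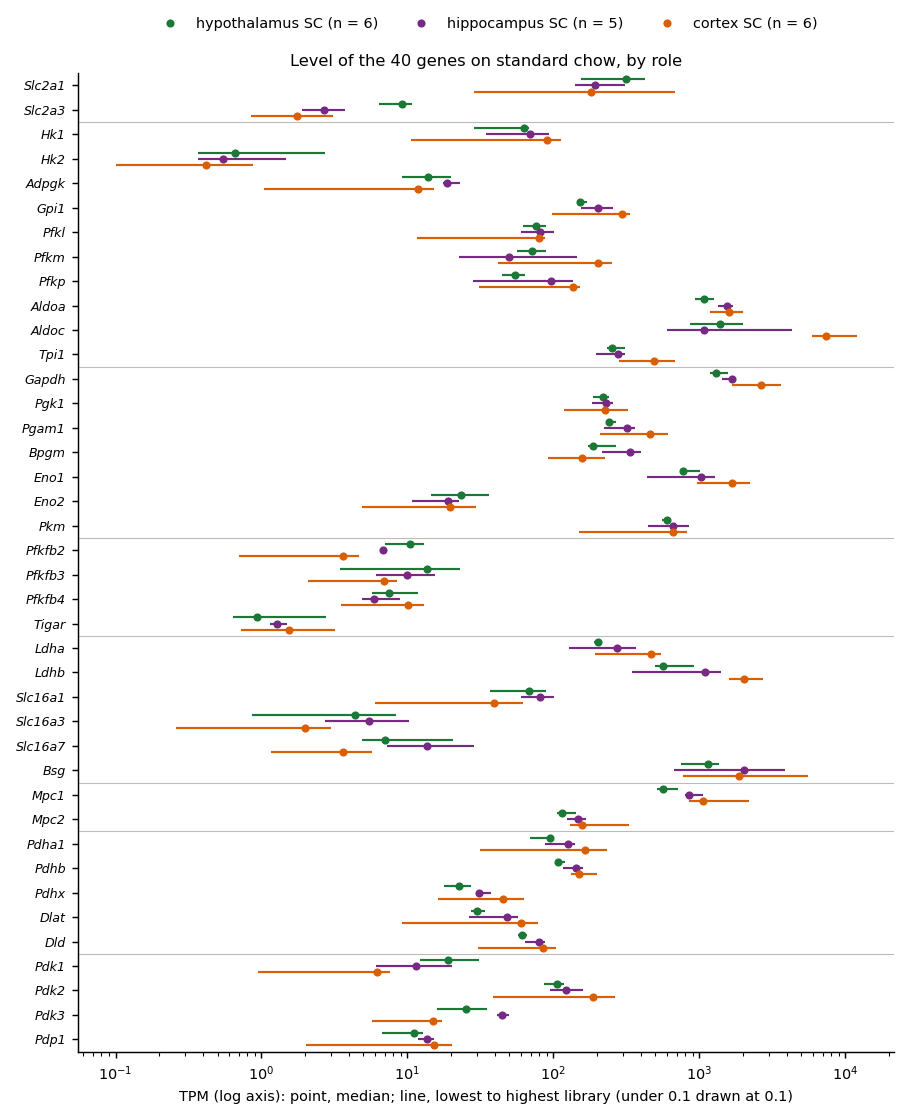
Level in TPM (log axis) of each of the 40 genes in the SC libraries of hypothalamus (n = 6), hippocampus (n = 5) and cortex (n = 6), grouped by role, where points mark the median and lines run from the lowest to the highest library. Aldoc reaches 12100 TPM in cortex on SC, while Hk2 has a median under 1 TPM in each region.

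In cortex on SC a single form dominated among the hexokinases, the glucose transporters and the enolases. Hk1, the hexokinase bound to mitochondria, had a median of 90.11 TPM in cortex on SC beside 0.4173 TPM for Hk2. Slc2a1, which encodes the GLUT1 transporter of astrocytes and the blood-brain barrier, had 180.7 TPM beside 1.746 TPM for Slc2a3, which encodes the neuronal GLUT3. Of the enolases, Eno1 had 1666 TPM and the neuronal Eno2 19.53 TPM. Phosphofructokinase was more even, with medians of 201.9 TPM for Pfkm, 135.7 TPM for Pfkp and 80.33 TPM for Pfkl.

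Pkm, which encodes the last enzyme of glycolysis, is spliced with either of a pair of mutually exclusive exons, and the M2 form was the main one in each library. Both exons lie on chromosome 9 of build GRCm38, on the plus strand, each 167 bases long, the M1 exon at chr9:59675029-59675195 and the M2 exon at chr9:59675568-59675734. They differ at 64 bases (61.7% identical), which is what lets short reads be assigned to the isoforms. The exons are shown because the isoform shares rest on them, 5′ to 3′, with the differing bases in capitals.
Pkm M1 exon: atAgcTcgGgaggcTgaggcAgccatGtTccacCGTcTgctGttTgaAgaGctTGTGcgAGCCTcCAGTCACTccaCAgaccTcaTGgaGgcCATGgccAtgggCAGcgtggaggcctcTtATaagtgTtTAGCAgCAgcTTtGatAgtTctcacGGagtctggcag
Pkm M2 exon: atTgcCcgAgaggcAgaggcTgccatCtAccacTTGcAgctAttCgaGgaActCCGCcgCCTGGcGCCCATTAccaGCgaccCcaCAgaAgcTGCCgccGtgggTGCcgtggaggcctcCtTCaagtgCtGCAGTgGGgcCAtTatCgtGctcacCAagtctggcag

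Transcripts with the M2 exon made up 90.2% ± 3.65 (SD, n = 6) of Pkm TPM from either exon in cortex on SC, 86.8% ± 1.74 (n = 5) in hippocampus and 85.7% ± 1.6 (n = 6) in hypothalamus. In hippocampus on SC the replicates were at 86.26%, 89.79%, 85.21%, 86.3% and 86.37%. Hypothalamus libraries on SC ran from 83.56% to 88.19% with a median of 85.7%, and cortex libraries from 86.54% to 94.45% with a median of 90.09%, so that the groups overlapped. The hypothalamus share was lower than that of cortex by 4.49 percentage points (exact two-sided permutation p = 0.026, adjusted p = 0.0371 over the 10 shares of that comparison, and 0.0935 over all 90 share tests). On HFHS it was 88.6% ± 1.72 (n = 5) against 90.1% ± 3.12 (n = 6), a difference of -1.44 (adjusted p = 0.465). The summed level of Pkm did not pass the test between regions on either diet.

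More of the 40 genes were lower than higher in hypothalamus and in hippocampus when each was compared with cortex. On SC, 25 were lower and 3 higher in hypothalamus than in cortex (edgeR quasi-likelihood test, adjusted p under 0.05 over all genes), while 18.3% of the 21574 genes tested were lower, 17.7% higher and 36.1% called in all. In hippocampus 20 were lower and 5 higher than in cortex, against 15.3% of all genes lower, 15.4% higher and 30.8% in all. The median log2 fold change of the 40 was -0.94 and -0.57 in these comparisons, and that of all genes 0.06 and 0.04. On HFHS the counts were 15 lower and 2 higher for hypothalamus (9.21% and 14.6% of genes, 23.9% in all), and 15 lower and 1 higher for hippocampus (10.8% and 13.4%, 24.2% in all), with medians of -0.48 and -0.45. The hippocampus count on HFHS was 10 when replicate 3 or replicate 4 of hippocampus was left out, with 19.9% and 21% of all genes called.

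Fewer members were called between hypothalamus and hippocampus. On SC, 4 of the 40 were lower and 1 higher in hypothalamus (4.13% and 5.86% of genes, 10.0% in all), and on HFHS 2 were lower and 1 higher (2.18% and 4.24%, 6.42% in all). These small counts depended on single libraries. On SC they ran from 2 to 5 with 1 library left out, 2 without any of hypothalamus SC 2 to 5 or hippocampus SC 1 or 2 and 3 without hippocampus SC 4, and were 11 without the 3 short libraries, when 14.7% of all genes were called. On HFHS they ran from 0 to 3, 0 without any of hypothalamus HFHS 2, 4 or 5 or hippocampus HFHS 1 or 3 and 1 without hypothalamus HFHS 3 or hippocampus HFHS 4, and were 5 without the short libraries (11.3% of all genes). Groups did not overlap on CPM for 21, 16 and 5 members on SC in hypothalamus against cortex, hippocampus against cortex and hypothalamus against hippocampus, compared with 18.9%, 17.7% and 10.7% of all genes. On HFHS those counts were 5, 5 and 2, with 13.7%, 6.8% and 5.54% of all genes. The comparisons share groups, so that their counts are not independent.

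Cell makeup moved with the region. Of 12 astrocyte markers, 10 were lower in hypothalamus and 11 in hippocampus than in cortex on SC, and 3 and 11 on HFHS, and 0 were higher. Of 8 oligodendrocyte markers, 3 were higher in hypothalamus and 5 in hippocampus on SC. All 6 ependymal markers were higher than in cortex in both regions on both diets. The part of cell makeup in the region differences was not tested.

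**Figure D2:**
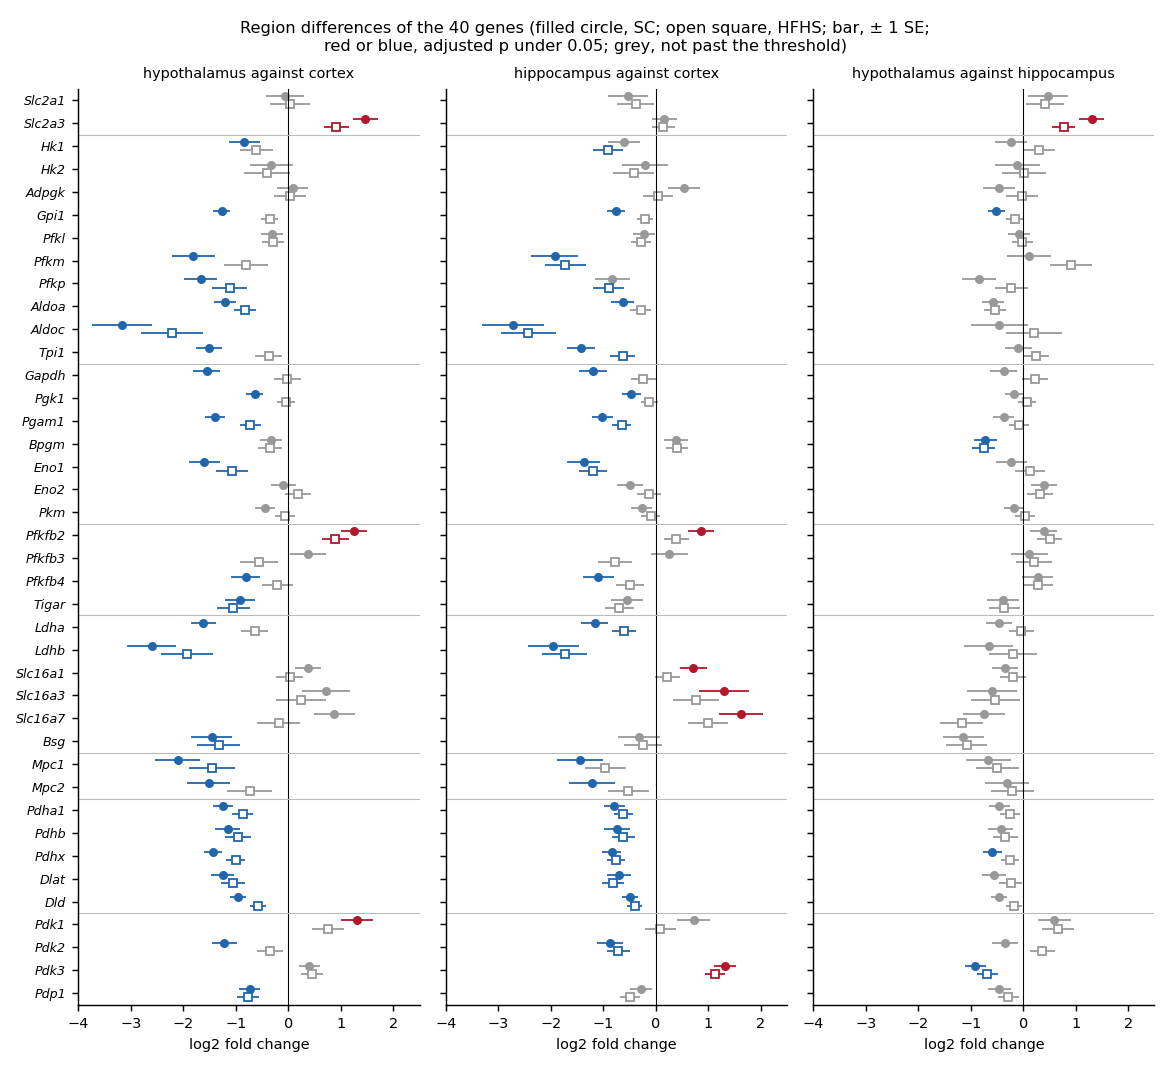
Log2 fold change of each of the 40 genes between regions (hypothalamus against cortex, hippocampus against cortex, hypothalamus against hippocampus), with circles for SC, squares for HFHS, bars of 1 SE, and colour for an adjusted p under 0.05 (red higher, blue lower). In the comparisons with cortex on SC, 25 and 20 genes are lower and 3 and 5 higher.

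Among the glucose transporters, only Slc2a3 passed the test. It ranged from 14.02 to 20.95 CPM with a median of 16.31 in hypothalamus on SC, at 5.861, 5.174, 10.19, 7.186 and 6.432 CPM in hippocampus, and from 4.354 to 8.521 CPM with a median of 6.196 in cortex. All hypothalamus libraries on SC lay above all those of the other regions, by a log2 fold change of 1.47 ± 0.23 (SE) over cortex (adjusted p = 6.19e-06) and 1.30 ± 0.24 over hippocampus (adjusted p = 0.000892). Of the 8 neuron markers, 5 were called lower in hypothalamus than in cortex on SC and 0 higher. Medians of Gad1 (12.2 against 5.42 TPM), Gad2 (2.7 against 1.35 TPM) and Tubb3 (22.4 against 14.3 TPM) were nonetheless higher in hypothalamus. The part of neurons in Slc2a3 was not tested. Slc2a1 ranged from 172 to 1478 CPM with a median of 399.9 in cortex on SC, from 320.2 to 741.7 CPM with a median of 561 in hypothalamus and at 284.4, 375.4, 335.3, 567.3 and 417.2 CPM in hippocampus. Its groups overlapped widely, and neither difference from cortex passed (adjusted p = 0.916 and 0.304). Endothelial markers, whose cells also carry GLUT1, summed to between 122 and 3840 TPM in cortex on SC.

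The enzymes that convert glucose to triose phosphates had lower levels outside cortex in 7 of 10 cases in hypothalamus and 5 of 10 in hippocampus on SC, and 0 were higher. Aldoc had the largest difference of the 40 genes. It ranged from 8414 to 21310 CPM with a median of 10900 in cortex on SC, from 821 to 2345 CPM with a median of 1410 in hypothalamus and at 698, 4817, 685.2, 2466 and 1219 CPM in hippocampus. No library of the other regions reached the lowest of cortex, and the log2 fold changes were -3.17 ± 0.57 (adjusted p = 4.46e-05) and -2.72 ± 0.60 (adjusted p = 0.000922). On HFHS they were -2.22 ± 0.58 and -2.43 ± 0.52. The ubiquitous Aldoa differed less, by -1.21 ± 0.21 and -0.63 ± 0.22 on SC. Aldoa lost the call in hippocampus without any of hippocampus SC 1 or 3 or cortex SC 2 or 6, and without the last its fold change was -0.42 (adjusted p = 0.117).

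Gpi1, the isomerase that turns glucose-6-phosphate into fructose-6-phosphate, ranged from 383.5 to 620.8 CPM with a median of 476.6 in cortex on SC, from 182.4 to 210.5 CPM with a median of 199.2 in hypothalamus and at 284.6, 278.9, 195.5, 291.9 and 363.3 CPM in hippocampus. In CPM the hypothalamus and hippocampus groups lay wholly below cortex, with log2 fold changes of -1.27 ± 0.16 (adjusted p = 1.49e-07) and -0.76 ± 0.17 (adjusted p = 0.00092). In TPM they did not. The short library cortex SC 6, at 98.09 TPM, lay below the lowest SC library of hypothalamus (146.3 TPM) and of hippocampus (153.6 TPM). Tpi1, which interconverts the triose phosphates, differed by -1.52 ± 0.25 and -1.42 ± 0.26. Of the phosphofructokinases, Pfkm was lower in both regions, at -1.81 ± 0.41 and -1.93 ± 0.44, and Pfkp in hypothalamus, at -1.67 ± 0.32, while Pfkl did not pass. Hk1 was lower in hypothalamus at -0.84 ± 0.30, whereas Hk2 and Adpgk, an ADP-dependent glucokinase, passed in neither region on SC. The call of Hk1 was lost without hypothalamus SC 6, cortex SC 1 or cortex SC 2 (adjusted p up to 0.0664).

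Of the 7 enzymes from glyceraldehyde-3-phosphate to pyruvate, Gapdh, Pgk1, Pgam1 and Eno1 were lower than in cortex in both regions on SC. Gapdh ranged from 2119 to 4161 CPM with a median of 2546 in cortex, from 846.4 to 1291 CPM with a median of 951.2 in hypothalamus and at 1399, 1291, 1103, 1145 and 1401 CPM in hippocampus. In CPM these groups did not overlap, and the log2 fold changes were -1.56 ± 0.25 (adjusted p = 1.04e-05) and -1.19 ± 0.27 (adjusted p = 0.00104). In TPM the hippocampus group, up to 1780 TPM, overlapped cortex, where the short library SC 6 was lowest at 1664 TPM. On HFHS Gapdh no longer passed, at -0.02 ± 0.26 (adjusted p = 0.967) and -0.24 ± 0.24 (adjusted p = 0.508). Pgam1, the phosphoglycerate mutase, differed by -1.39 ± 0.19 and -1.02 ± 0.20 on SC and by -0.73 ± 0.20 and -0.65 ± 0.18 on HFHS. Its libraries ranged from 208.2 to 304 CPM with a median of 229.1 in hypothalamus on SC, at 287, 333.5, 234.1, 321 and 378.5 CPM in hippocampus and from 505.8 to 846.4 CPM with a median of 593.5 in cortex. The hippocampus call of Pgk1 on SC was lost without any of hippocampus SC 1 to 4 or cortex SC 2, 3 or 6 (adjusted p up to 0.137).

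Bpgm, which makes 2,3-bisphosphoglycerate and is best known from red cells, was higher in hippocampus than in hypothalamus on both diets. It was at 381.3, 318.1, 371.2, 186.7 and 208.1 CPM in hippocampus on SC and from 149.4 to 216.9 CPM with a median of 173.6 in hypothalamus, with overlapping groups and a log2 fold change, hypothalamus against hippocampus, of -0.72 ± 0.22 (adjusted p = 0.0363). On HFHS the groups did not overlap and the fold change was -0.75 ± 0.22 (adjusted p = 0.0355). The SC call was lost without any of hypothalamus SC 2 to 5 or hippocampus SC 1 to 3 (adjusted p up to 0.125), and the HFHS call without any of hypothalamus HFHS 2 to 5 or hippocampus HFHS 1 to 4 (adjusted p up to 0.0905). Erythrocyte markers summed to between 1280 and 8200 TPM in hippocampus and between 1320 and 11900 TPM in hypothalamus on SC, and their part was not tested.

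Lactate dehydrogenase was lower outside cortex in both of its subunits on SC. Ldhb, the subunit that predominates in oxidative tissue, ranged from 1261 to 6618 CPM with a median of 1822 in cortex on SC, from 311.6 to 712.4 CPM with a median of 383 in hypothalamus and at 437.3, 885.8, 253.8, 969.7 and 814.6 CPM in hippocampus. The groups did not overlap, with log2 fold changes of -2.61 ± 0.47 (adjusted p = 5.25e-05) and -1.95 ± 0.49 (adjusted p = 0.00308). The highest cortex value, 6618 CPM, belonged to the short library SC 6, and the other 5 lay between 1261 and 2704 CPM. Without that library the fold changes were -2.08 (adjusted p = 0.000341) and -1.42 (adjusted p = 0.0189). On HFHS they were -1.93 ± 0.49 and -1.74 ± 0.43, and -1.26 (adjusted p = 0.0309) and -1.07 (adjusted p = 0.0429) without the short library HFHS 6. Ldha, the subunit that favours lactate formation, ranged from 465.4 to 679.3 CPM with a median of 506.5 in cortex, from 149.2 to 200.2 CPM with a median of 176.4 in hypothalamus and at 160, 256.1, 120.4, 326.4 and 337.7 CPM in hippocampus. Its fold changes were -1.62 ± 0.24 (adjusted p = 3e-06) and -1.16 ± 0.25 (adjusted p = 0.000869), again without overlap in CPM. In TPM both groups overlapped cortex, where the short library SC 6 was at 191.5 TPM. Hypothalamus ran from 189.1 to 211.9 TPM and hippocampus from 128.1 to 369.3 TPM. On HFHS the fold change of Ldha in hippocampus against cortex ran from -0.73 to -0.39 over the alternatives (adjusted p from 0.00294 to 0.21).

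The lactate carriers went the other way in hippocampus. Slc16a7, which encodes the MCT2 carrier, was at 13.34, 11.68, 20.4, 10.05 and 7.05 CPM in hippocampus on SC and from 2.108 to 6.315 CPM with a median of 4.047 in cortex, a log2 fold change of 1.62 ± 0.41 (adjusted p = 0.00317). Slc16a1, which encodes MCT1, was at 223.4, 270.5, 225.4, 186.7 and 163.3 CPM in hippocampus and from 54.72 to 181.8 CPM with a median of 130.8 in cortex, at 0.72 ± 0.25 (adjusted p = 0.029), and Slc16a3 differed by 1.30 ± 0.48 (adjusted p = 0.0368). The call of Slc16a1 was lost without any of hippocampus SC 1, 2 or 3 or cortex SC 2, 3 or 6 (adjusted p up to 0.0818), and that of Slc16a3 without any of hippocampus SC 1, 2 or 3 or cortex SC 2, 4, 5 or 6 (adjusted p up to 0.138). The MCT2 groups did not overlap, whereas those of MCT1 did. None of the carriers passed on HFHS, where the fold changes were 0.99 ± 0.38, 0.22 ± 0.23 and 0.77 ± 0.44, nor between hypothalamus and cortex on SC, where they were 0.87 ± 0.39, 0.38 ± 0.24 and 0.71 ± 0.46. Bsg was lower in hypothalamus than in cortex, at -1.46 ± 0.39 on SC and -1.33 ± 0.41 on HFHS, and ranged from 740 to 4213 CPM within cortex on SC.

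Aldoc, Ldha and Ldhb were all lower outside cortex on SC, and their promoters are shown with that of Pfkfb3, whose diet values follow. The windows, from RefSeq on GRCm38.p6, run from 250 bases before to 50 bases after the transcription start, and are given 5′ to 3′ on the gene's strand. Capitals mark ACGTG or GCGTG on either strand, the core letters of the hypoxia response element that hypoxia-inducible factors bind. A palindrome CACGTG counts as 2 overlapping matches. Of the windows listed for Aldoc, Ldha and Pfkfb3, the one with the most matches is printed, and Ldhb has 1.
Aldoc, chr11:78322823-78323122, plus strand: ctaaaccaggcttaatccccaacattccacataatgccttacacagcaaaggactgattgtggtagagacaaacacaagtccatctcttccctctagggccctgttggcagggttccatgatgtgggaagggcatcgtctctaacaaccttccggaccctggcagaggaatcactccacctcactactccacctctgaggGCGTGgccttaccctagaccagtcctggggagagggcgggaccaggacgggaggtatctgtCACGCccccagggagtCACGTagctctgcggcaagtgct
Ldha, chr7:46845554-46845853, plus strand: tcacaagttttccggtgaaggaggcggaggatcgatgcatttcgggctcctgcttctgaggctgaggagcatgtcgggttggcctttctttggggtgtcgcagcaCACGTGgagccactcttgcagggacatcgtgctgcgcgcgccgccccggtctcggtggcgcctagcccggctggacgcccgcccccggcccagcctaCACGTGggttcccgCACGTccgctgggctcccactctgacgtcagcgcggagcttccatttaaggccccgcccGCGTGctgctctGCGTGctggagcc
Ldhb, chr6:142507908-142508207, minus strand: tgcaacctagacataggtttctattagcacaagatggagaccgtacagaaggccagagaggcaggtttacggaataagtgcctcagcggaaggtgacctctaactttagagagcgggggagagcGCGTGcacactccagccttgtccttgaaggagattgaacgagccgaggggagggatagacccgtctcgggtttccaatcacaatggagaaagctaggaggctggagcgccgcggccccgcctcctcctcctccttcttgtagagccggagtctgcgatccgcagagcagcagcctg
Pfkfb3, chr2:11502041-11502340, minus strand: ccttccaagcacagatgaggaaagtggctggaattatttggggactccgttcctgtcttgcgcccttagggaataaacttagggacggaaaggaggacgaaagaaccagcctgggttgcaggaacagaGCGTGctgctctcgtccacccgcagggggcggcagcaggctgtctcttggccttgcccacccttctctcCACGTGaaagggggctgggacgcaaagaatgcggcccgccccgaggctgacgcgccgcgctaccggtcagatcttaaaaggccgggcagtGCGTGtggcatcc

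The Ldha window holds 7 matches, that of Pfkfb3 4, that of Aldoc 3 and that of Ldhb 1. Of the 40 genes, 36 have a window in the table, and 39 of their 53 windows (73.6%) hold a match, as do 43.8% of all 32851 windows of that length. The member windows were richer in G and C, with a median of 62.0% against 52.7%, and the 2 shares were not matched for it. The letters were searched after the data had been seen, and a match is a description of the sequence only.

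Fructose-2,6-bisphosphate is made and broken down by the bifunctional Pfkfb enzymes and degraded by Tigar. Pfkfb2, the isoenzyme of heart, was higher in hypothalamus than in cortex on SC, from 16.39 to 23.74 CPM with a median of 18.42 in hypothalamus and from 3.944 to 9.313 CPM with a median of 8.707 in cortex. The groups did not overlap, and the log2 fold change was 1.25 ± 0.24 (adjusted p = 0.00014), with 0.86 ± 0.25 in hippocampus (adjusted p = 0.00969). Pfkfb4 was lower in both, at -0.81 ± 0.28 and -1.09 ± 0.30, and Tigar in hypothalamus at -0.92 ± 0.29. In hypothalamus the call of Pfkfb4 was lost without hypothalamus SC 4 or cortex SC 2 (adjusted p up to 0.0859), and that of Tigar without cortex SC 6 (adjusted p = 0.0592). Pfkfb3, the form with the highest kinase activity, did not pass, at 0.37 ± 0.34 and 0.26 ± 0.36.

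Transcripts of pyruvate entry into mitochondria were lower outside cortex at nearly every step on SC. Both subunits of the mitochondrial pyruvate carrier were lower, Mpc1 at -2.11 ± 0.42 in hypothalamus and -1.45 ± 0.44 in hippocampus and Mpc2 at -1.52 ± 0.41 and -1.21 ± 0.43. The short library SC 6 had the highest Mpc1 value in cortex on SC, 3111 CPM, where the other 5 lay between 378.4 and 874.9 CPM, and the highest of Mpc2, 438.9 CPM, where the others lay between 56.37 and 106.4 CPM. Without that library Mpc1 was at -1.28 in hypothalamus (adjusted p = 0.00238) and -0.62 in hippocampus (adjusted p = 0.179), and Mpc2 at -0.66 (adjusted p = 0.105) and -0.36 (adjusted p = 0.452), so that the call of Mpc1 in hypothalamus alone was kept. The hippocampus call of Mpc2 was also lost without any of hippocampus SC 2 to 5 (adjusted p up to 0.0665). Without all 3 short libraries Mpc1 was at -1.42 (adjusted p = 8.05e-07) and -0.60 (adjusted p = 0.0152), and Mpc2 at -0.78 (adjusted p = 0.000517) and -0.34 (adjusted p = 0.123). All 5 subunits of the pyruvate dehydrogenase complex (Pdha1 and Pdhb of the decarboxylase, Dlat, Dld and the binding protein Pdhx) were lower than in cortex in both regions on both diets. Pdhx ranged from 68.94 to 127.6 CPM with a median of 83.28 in cortex on SC, from 27.07 to 45.49 CPM with a median of 31.14 in hypothalamus and at 46.68, 55.83, 47.03, 49.1 and 47.21 CPM in hippocampus. It had the smallest p of the 40 genes in hypothalamus, with a log2 fold change of -1.43 ± 0.18 (adjusted p = 1.21e-07), and -0.84 ± 0.19 in hippocampus (adjusted p = 0.000923), both without overlap in CPM. In TPM the short library cortex SC 6, at 16.31 TPM, lay below the lowest SC library of hypothalamus (17.81 TPM) and of hippocampus (30.64 TPM). For the other subunits the hypothalamus values were -1.25 ± 0.19 for Pdha1, -1.25 ± 0.22 for Dlat, -1.16 ± 0.23 for Pdhb and -0.96 ± 0.15 for Dld. In hippocampus the SC calls were lost for Pdhb without hippocampus SC 3 or cortex SC 6 (-0.47 without the latter, adjusted p = 0.106), for Dlat without hippocampus SC 1, hippocampus SC 3 or cortex SC 2 and for Dld without hippocampus SC 3 or cortex SC 2. On HFHS those of Pdhb and Dld were lost without any of hippocampus HFHS 1, 3 or 4 or cortex HFHS 6, and that of Dld also without cortex HFHS 2 or 4. Without cortex HFHS 6 Pdhb was at -0.27 (adjusted p = 0.308) and Dld at -0.28 (adjusted p = 0.141) in hippocampus, and Pdhb at -0.61 (adjusted p = 0.0228) in hypothalamus, where it was -0.96 ± 0.24 with all libraries.

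Among the kinases that switch the complex off, Pdk2 was lower than in cortex, Pdk1 higher in hypothalamus and Pdk3 higher in hippocampus. Pdk2, the main form in most tissues, ranged from 168.5 to 481.5 CPM with a median of 300.4 in cortex on SC, from 120.9 to 146.6 CPM with a median of 131.4 in hypothalamus and at 154.7, 215.6, 129.5, 174.7 and 166.7 CPM in hippocampus, at -1.22 ± 0.24 (adjusted p = 0.00015) and -0.87 ± 0.25 (adjusted p = 0.00857). Pdk3 was at 64.54, 51.08, 59.03, 50.73 and 56.53 CPM in hippocampus on SC and from 18.66 to 24.06 CPM with a median of 23.37 in cortex, with all hippocampus libraries above all those of cortex. Its log2 fold change of 1.31 ± 0.21 (adjusted p = 2.35e-05) had the smallest p of the 40 genes in that comparison, and 1.13 ± 0.19 on HFHS the smallest there as well (adjusted p = 5.79e-05). Hypothalamus lay below hippocampus in Pdk3, at -0.91 ± 0.21 on SC and -0.68 ± 0.20 on HFHS, where the HFHS call was lost without any of hypothalamus HFHS 2 to 5 or hippocampus HFHS 1, 3, 4 or 5 (adjusted p up to 0.11). Pdk1, a target of hypoxia-inducible factors, was higher in hypothalamus than in cortex on SC, from 34.81 to 62.49 CPM with a median of 44.08 in hypothalamus and from 9.922 to 23.61 CPM with a median of 21.02 in cortex, at 1.31 ± 0.30 (adjusted p = 0.000933). The phosphatase Pdp1, which switches the complex on, was lower in hypothalamus, at -0.74 ± 0.20.

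Shares within a family, which do not depend on the scaling between libraries, also differed by region. Aldoc made up 83.1% ± 1.53 (SD, n = 6) of aldolase TPM (Aldoa and Aldoc) in cortex on SC. In hypothalamus it was 54.5% ± 10.6 (n = 6), and in hippocampus 46.5% ± 18.1 (n = 5). The hippocampus replicates were at 30.33%, 72.2%, 31.3%, 57.52% and 40.91%, a wide spread. Differences from cortex were -28.6 and -36.7 percentage points (exact permutation p = 0.00216 and 0.00433, the smallest these designs allow, adjusted p = 0.00541 and 0.0216). Pdk2 made up 89.5% ± 3.07 of Pdk1 to Pdk3 in cortex, 69.9% ± 3.66 in hypothalamus and 68.1% ± 4.99 in hippocampus (adjusted p = 0.00541 and 0.0216). The Ldhb share of lactate dehydrogenase was 82.8% ± 5.96 in cortex and 74.7% ± 3.84 in hypothalamus on SC, a difference of -8.19 points (exact permutation p = 0.0152, adjusted p = 0.0253, and 0.0682 over all 90 share tests). On HFHS the difference was -10.6 points in hypothalamus and -9.76 in hippocampus (adjusted p = 0.0216 and 0.00777). The short libraries had the highest Ldhb shares of cortex, SC 6 at 93.47% and HFHS 6 at 93.17%. With 1 library left out the hypothalamus difference ran from -9.646 to -6.065 points on SC and from -11.79 to -9.344 on HFHS. The hippocampus difference on HFHS ran from -10.84 to -7.801 points. In hypothalamus against cortex on SC, 7 of the 10 shares passed, among them Pfkp of the phosphofructokinases at 26.9% ± 1.67 against 33.2% ± 1.95, Eno2 of the enolases at 3% ± 1.13 against 1.12% ± 0.516, and Slc2a3 of the glucose transporters at 3.07% ± 0.773 against 1.42% ± 0.896 (adjusted p = 0.00541, 0.00541 and 0.0253). The count was 2 in hippocampus against cortex on SC, 7 and 5 on HFHS, and 0 between hypothalamus and hippocampus on either diet. Slc16a1 made up 78.7% ± 3.94 of the 3 lactate carriers in hippocampus on HFHS (n = 7) and 88.1% ± 6.26 in cortex (n = 6), a difference of -9.44 points (exact permutation p = 0.00583, adjusted p = 0.0146).

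**Figure D3:**
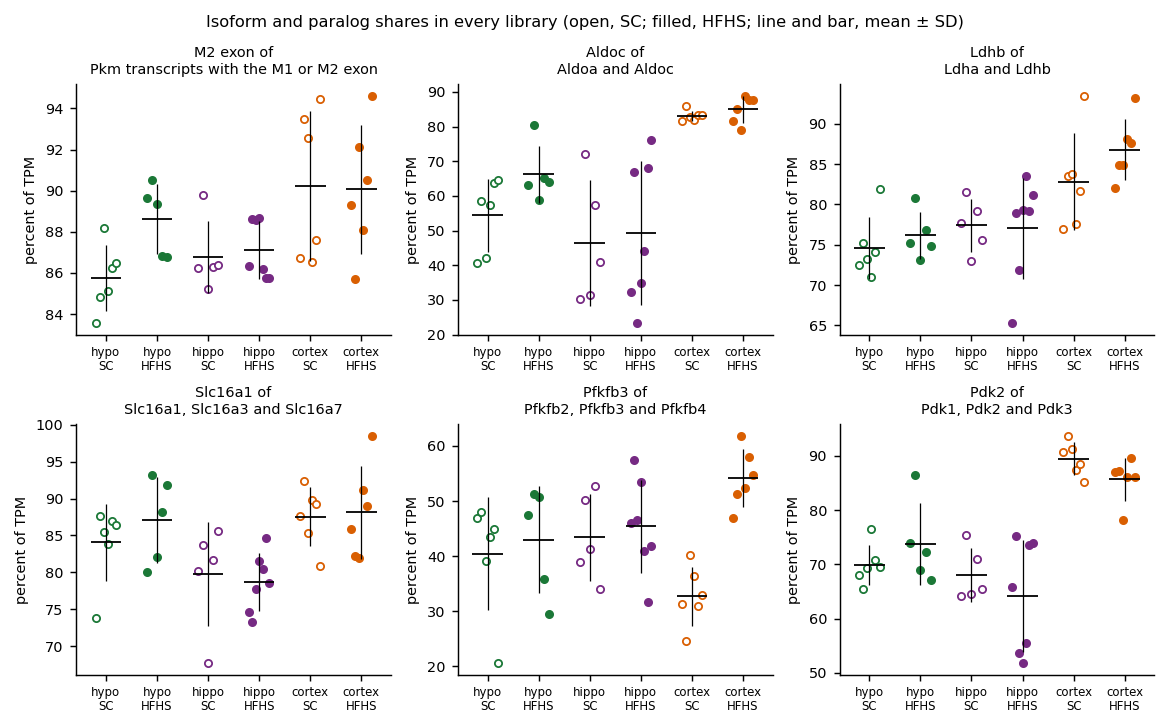
Percent of TPM within a family held by 1 isoform or gene (the M2 form of Pkm, Aldoc, Ldhb, Slc16a1, Pfkfb3 and Pdk2) in each of the 35 libraries, with open points for SC, filled points for HFHS, and the mean ± SD of each group. The Aldoc share in cortex on SC, 83.1% ± 1.53, stands above the 2 other regions, and the Pfkfb3 share in cortex is higher on HFHS than on SC in every library.

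The diet comparison within each region called 0 of the 40 genes. EdgeR also called 0.0% of the 19272 genes tested in hypothalamus, 0.0% of the 19036 in hippocampus and 0.0% of the 17844 in cortex. At an unadjusted p under 0.05 there were 14 members in hypothalamus (8.5% of all genes), 2 in hippocampus (5.17%) and 4 in cortex (9.26%). The median log2 fold change of the 40 was 0.20, 0.01 and -0.01, and that of all genes -0.01, 0.00 and -0.02. DESeq2 called 0, 0 and 1 of the members, the last being Gpi1, beside 504 of all genes (2.82%) in cortex.

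In hypothalamus, 13 of the 14 members at an unadjusted p under 0.05 had a higher fitted value on HFHS (3.83% of all genes were higher at that level) and 1, Slc2a3, a lower one. Gapdh was at 1453, 2496, 1957, 1213 and 1128 CPM on HFHS and from 846.4 to 1291 CPM with a median of 951.2 on SC, with overlapping groups and a log2 fold change of 0.73 ± 0.22 (adjusted p = 0.472). Ldha was at 247.9, 366.7, 213.4, 213 and 236.7 CPM on HFHS and from 149.2 to 200.2 CPM with a median of 176.4 on SC, at 0.54 ± 0.16 (adjusted p = 0.472). In CPM all HFHS libraries lay above all SC libraries for Ldha and for Gpi1, at 0.39 ± 0.15, the 2 members whose groups did not overlap (0.82% of all genes). In TPM the Gpi1 groups overlapped, from 151.9 to 235.6 on HFHS and from 146.3 to 169.8 on SC. For Aldoc the HFHS libraries were at 2459, 7429, 1601, 2327 and 2263 CPM and the SC libraries from 821 to 2345 CPM with a median of 1410, at 1.15 ± 0.39 (adjusted p = 0.482). Pfkm stood at 0.88 ± 0.30 and Tpi1 at 0.58 ± 0.20, both with an adjusted p of 0.482.

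Replicate 2 on HFHS had the highest value of its group in Gapdh, Ldha, Aldoc, Pfkm and Tpi1. Without it, 5 members had an unadjusted p under 0.05 (6.88% of all genes). The fold change of Aldoc was then 0.58, that of Pfkm 0.41, that of Gapdh 0.54, that of Ldha 0.37 and that of Tpi1 0.36, and the median of the 40 was 0.11. Without 1 of SC replicates 1, 2, 4 and 5 the count at an unadjusted p under 0.05 was 8 or 9 (6.55% to 7.1% of all genes). All 12 astrocyte markers had a higher fitted value on HFHS with replicate 2 in, 7 of them at an unadjusted p under 0.05, with a median of 0.74. Their summed level was 10500 TPM in replicate 2 and between 3400 and 3830 TPM in the other 4, compared with 2620 to 4110 TPM on SC. The part of these markers in the values of the 40 genes was not tested. Slc2a3 was at 7.593, 12.63, 11.13, 10.64 and 16.77 CPM on HFHS and from 14.02 to 20.95 CPM with a median of 16.31 on SC, at -0.56 ± 0.20 (adjusted p = 0.485), with 3 of the 8 neuron markers and all 6 of the oligodendrocyte precursor markers lower at an unadjusted p under 0.05. The precursor markers summed to between 21.1 and 95.7 TPM on HFHS and between 79.3 and 282 TPM on SC, and their part was not tested.

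**Figure D4:**
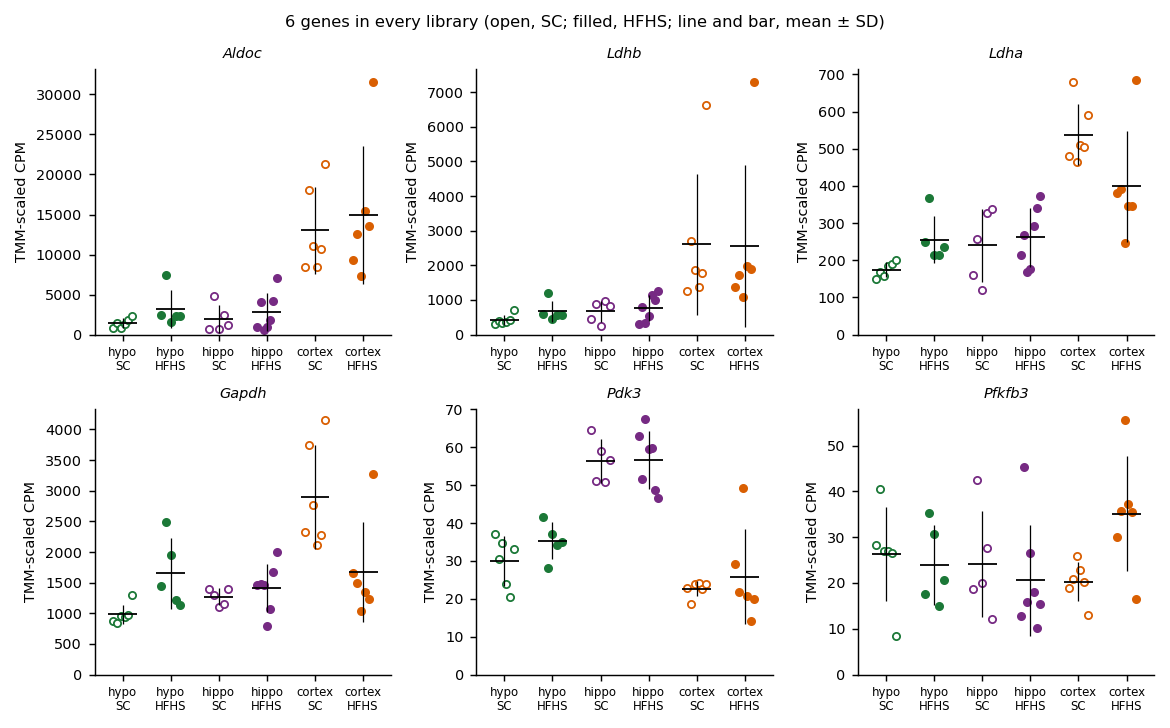
TMM-scaled CPM of Aldoc, Ldhb, Ldha, Gapdh, Pdk3 and Pfkfb3 in each of the 35 libraries by region and diet, with open points for SC, filled points for HFHS, and the mean ± SD of each group. Ldha in hypothalamus is higher in each HFHS library than in each SC library, and the HFHS group of Aldoc there contains a single point at 7429 CPM.

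In hippocampus no member passed, and the 5 with the smallest p were Adpgk, Pfkfb2, Aldoa, Hk1 and Mpc2. Adpgk ranged from 13.41 to 28.79 CPM with a median of 17.39 on HFHS and at 31.29, 26.84, 27.33, 27.3 and 35.67 CPM on SC, at -0.53 ± 0.23, and Pfkfb2 differed by -0.39 ± 0.18. Aldoa stood at 0.23 ± 0.13, Hk1 at -0.43 ± 0.30 and Mpc2 at 0.17 ± 0.12. The adjusted p of these 5 lay between 0.876 and 0.884, the groups of every member overlapped (0.315% of all genes did not), and Aldoc ranged from 618.7 to 7018 CPM within HFHS alone. Choroid plexus markers summed to between 131 and 33200 TPM on SC and between 3970 and 29700 TPM on HFHS, and their part was not tested.

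In cortex the fitted values of Pfkfb3 were higher and those of Gpi1, Gapdh and Pfkfb4 lower on HFHS, each at an unadjusted p under 0.05 and none past the adjusted threshold. Pfkfb3 ranged from 16.54 to 55.58 CPM with a median of 35.61 on HFHS and from 13.1 to 25.9 CPM with a median of 20.47 on SC, at 0.83 ± 0.27 (adjusted p = 0.284). The HFHS value under the SC median belonged to the short library HFHS 6, and the groups overlapped through it, as 0 members were free of overlap in cortex (0.788% of all genes were). Gapdh ranged from 1040 to 3267 CPM with a median of 1426 on HFHS and from 2119 to 4161 CPM with a median of 2546 on SC, at -0.76 ± 0.29 (adjusted p = 0.407). Gpi1 ranged from 273.9 to 388 CPM with a median of 341.4 on HFHS and from 383.5 to 620.8 CPM with a median of 476.6 on SC, at -0.47 ± 0.17 (adjusted p = 0.371). Pfkfb4 stood at -0.76 ± 0.30 and Eno2 at -0.52 ± 0.27.

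Leaving out the 3 short libraries brought 3 members past the threshold in cortex. Gapdh was then lower on HFHS, with a log2 fold change of -0.90 (adjusted p = 0.0251), as was Gpi1, at -0.55 (adjusted p = 0.0441), and Pfkfb3 was higher, at 0.90 (adjusted p = 0.0277), with 515 of 17998 genes (2.86%) called. The count at an unadjusted p under 0.05 was 10 both then (18.2% of all genes) and without HFHS 6 alone (17.1%), when the adjusted p was 0.0543 for Gapdh and 0.0709 for Pfkfb3. The adjusted p of these 3 genes over the alternatives ran from 0.0225 to 0.71 for Gapdh, from 0.0338 to 0.702 for Gpi1 and from 0.027 to 0.598 for Pfkfb3. Oligodendrocyte markers summed to between 7150 and 58300 TPM on HFHS and between 6580 and 50200 TPM on SC in cortex, and the lowest of each belonged to the short libraries.

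**Figure D5:**
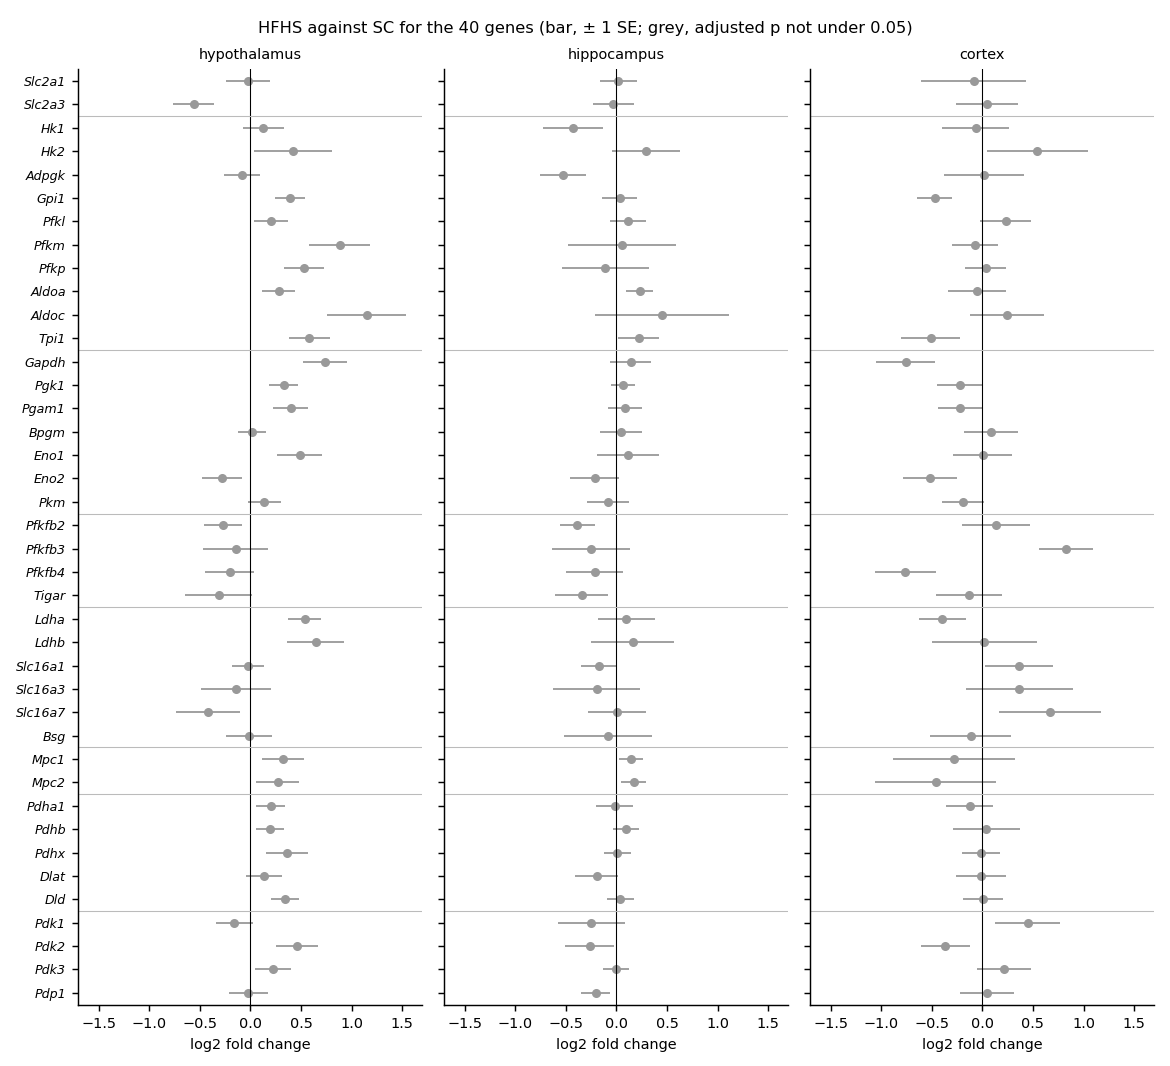
Log2 fold change of each of the 40 genes on HFHS against SC in hypothalamus, hippocampus and cortex, with bars of 1 SE and grey points where the adjusted p was not under 0.05. Every point is grey, and the hypothalamus points lie to the right of 0 for most glycolytic enzymes, with a median over all 40 of 0.20.

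The share of Pfkfb3 among the Pfkfb2, Pfkfb3 and Pfkfb4 transcripts separated the diets in cortex. It was 54.2% ± 5.23 (SD, n = 6) on HFHS and 32.8% ± 5.34 (n = 6) on SC. HFHS libraries ran from 46.98% to 61.85% with a median of 53.52%, all above the SC libraries, which ran from 24.58% to 40.26% with a median of 32.14%. The difference of 21.4 percentage points had an exact two-sided permutation p of 0.00216, the smallest that 6 against 6 allows. The adjusted p was 0.0216 over the 10 shares of the comparison, 0.0262 over all 90 share tests and 0.0649 over the 30 between diets, so that the last adjustment does not call it. With estimated counts in place of TPM the means were 62.1% and 40.5% (exact permutation p = 0.00216). Without the short libraries they were 54.1% and 32.7% (n = 5 and 5), where 0.00794 is the smallest exact permutation p and the adjusted p was 0.0794. Transcript Pfkfb3-206, which held 53.0% of the gene's TPM over all libraries, had a median of 7.97 TPM on HFHS and 4.06 TPM on SC in cortex. For the whole genes in cortex, the medians on HFHS and SC were 12.09 and 6.927 TPM for Pfkfb3 and 6.33 and 10.06 TPM for Pfkfb4. Those of Pfkfb2 were 4.684 and 3.635 TPM. The lower Pfkfb4 values therefore enter the share along with the higher Pfkfb3 values.

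In the other regions the Pfkfb3 share did not differ beyond its spread, at 43% ± 9.75 (n = 5) against 40.5% ± 10.2 (n = 6) in hypothalamus (exact permutation p = 0.693) and 45.4% ± 8.46 (n = 7) against 43.4% ± 7.86 (n = 5) in hippocampus (exact permutation p = 0.674). Whether the diet difference itself differed between regions was not tested for the shares. The M2 share of Pkm in hypothalamus was at 89.64%, 90.54%, 89.33%, 86.84% and 86.76% on HFHS, with a mean of 88.6% ± 1.72 against 85.7% ± 1.6 on SC (exact permutation p = 0.0216, adjusted p = 0.13). Apart from that of Pfkfb3 in cortex, no share passed between diets in any region.

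The diet effect on several glycolytic enzymes had opposite fitted signs in hypothalamus and cortex. In the model of all 6 groups, the interaction of hypothalamus against cortex was 1.54 ± 0.36 (SE) for Gapdh (adjusted p = 0.143), 0.91 ± 0.23 for Gpi1 (adjusted p = 0.161), 1.14 ± 0.35 for Tpi1 (adjusted p = 0.232), 0.98 ± 0.34 for Ldha and 0.87 ± 0.34 for Pdk2. EdgeR called 0.0% of the 21574 genes, and 7 members had an unadjusted p under 0.05 (11.6% of all genes). Without the 3 short libraries 4 members passed, Gpi1 (0.996, adjusted p = 0.0312), Tpi1 (1.42, adjusted p = 0.0216), Gapdh (1.77, adjusted p = 0.0186) and Pgk1 (0.76, adjusted p = 0.0409), with 2.23% of 21343 genes called. Without cortex HFHS 6 alone, 3 members passed, Gpi1 (0.96, adjusted p = 0.044), Tpi1 (1.46, adjusted p = 0.034) and Gapdh (1.84, adjusted p = 0.0158), and 17 had an unadjusted p under 0.05, as did 20.4% of all genes, with 0.836% called. Without hypothalamus HFHS 2, 0 members passed and 6 had an unadjusted p under 0.05 (9.9% of all genes). The median of the 40 was then 0.24, compared with 0.33 with all libraries. Without cortex SC 6, 0 members passed and 8 had an unadjusted p under 0.05 (12.0% of all genes). Over the alternatives the adjusted p of Gapdh ran from 0.00831 to 0.288.

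Between hippocampus and cortex, 4 members had an unadjusted p under 0.05 for the interaction (9.3% of all genes, 0.0% past the adjusted threshold), and 13 without cortex HFHS 6 (20.2% of all genes). In the fit of all libraries Gapdh was at 0.95 ± 0.35, Gpi1 at 0.56 ± 0.22, Tpi1 at 0.79 ± 0.35 and Pfkfb3 at -1.03 ± 0.48. Between hypothalamus and hippocampus there was 1, Pdk2, at 0.71 ± 0.34 (2.01% of all genes, 0.0% past the adjusted threshold). That count was 0 without hypothalamus HFHS 2 (1.84% of all genes) and 3 without the 3 short libraries (2.88%).

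Other genes of glucose metabolism are given beside the shares of all genes, of which 18.3% were lower and 17.7% higher in hypothalamus and 15.3% lower and 15.4% higher in hippocampus than in cortex on SC. On HFHS those shares were 9.21% and 14.6% in hypothalamus and 10.8% and 13.4% in hippocampus. Of 12 TCA cycle enzymes, 11 were lower in hypothalamus and 8 in hippocampus than in cortex on SC, and 2 and 6 on HFHS, and 0 were higher. Cs, the citrate synthase that opens the cycle, differed by -1.48 ± 0.23 and -1.15 ± 0.25 on SC, and Fh1, fumarase, by -1.16 ± 0.19 in hypothalamus. Of 7 pentose phosphate pathway enzymes, 2 were lower in hypothalamus, G6pdx, its first enzyme, at -0.89 ± 0.18 and Tkt, transketolase, at -0.68 ± 0.16, and 1 was higher in hippocampus, Taldo1, transaldolase, at 0.87 ± 0.33. Of 8 genes of the NADH shuttles, 3 were lower and 1 higher in hypothalamus and 2 lower and 3 higher in hippocampus, with Gpd2, the mitochondrial glycerol-3-phosphate dehydrogenase, at -1.60 ± 0.21 and -1.20 ± 0.22 and Slc25a13, an aspartate-glutamate carrier, at 2.16 ± 0.39 in hippocampus. Between diets 0 genes of these lists passed in any region.

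Of 14 hypoxia response genes, 3 were higher and 6 lower in hypothalamus and 5 higher and 4 lower in hippocampus than in cortex on SC, which is to be read against the same shares of all genes. Car9, a carbonic anhydrase induced by hypoxia, differed by 4.80 ± 0.50 in hypothalamus and 3.16 ± 0.48 in hippocampus, and Vhl, which marks hypoxia-inducible factors for degradation, by -1.82 ± 0.25 and -1.36 ± 0.26. Among 19 further isoenzymes and transporters, of which 15 were tested, 3 were higher and 2 lower in hypothalamus and 4 higher and 3 lower in hippocampus. Hkdc1, a hexokinase-like enzyme, differed by 3.53 ± 0.58 in hypothalamus and 1.83 ± 0.56 in hippocampus, and Pdp2, a phosphatase of the pyruvate dehydrogenase complex, by -1.23 ± 0.21 and -0.93 ± 0.22. Pklr, the liver and red cell pyruvate kinase, was listed at a median of 0 CPM in cortex, 1.44 CPM in hypothalamus and 0.703 CPM in hippocampus. Of 4 tested genes of gluconeogenesis and anaplerosis, 1 was lower in hypothalamus on SC, G6pc3, a glucose-6-phosphatase, at -0.95 ± 0.18, and 0 in hippocampus. No gene of these lists passed between diets.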

How the data were processed

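RNA of the 35 sorted fractions was amplified with a SMART-Seq kit, which does not mark strand, per the labels' protocols. The deposited files hold estimated counts and TPM per transcript made by the authors with Salmon on GRCm38, per the submitters' processing notes. The Salmon version is not given in the sources used here. By ID, 139852 of the 140948 transcripts were matched to GENCODE mouse release 21 and summed to 54119 genes. The 1096 unmatched transcripts held 0.214% to 0.535% of reads and were left out. Salmon divides reads among near copies, so levels of genes with processed pseudogenes, such as Gapdh, Aldoa, Ldha and Pgk1, are uncertain to that extent. Eno1b, a near copy of Eno1, held 0.47% to 1.67% of the TPM of Eno1.

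Estimated counts were rounded and tested with edgeR 4.0.16 in R 4.3.3 (filterByExpr, TMM, robust quasi-likelihood test, Benjamini-Hochberg adjustment over all genes tested, threshold 0.05). The SE of a log2 fold change is its size divided by the square root of F. Diet was tested on each region's own libraries, and interactions and regions in a model of the 6 groups. CPM are TMM-scaled. CPM and TPM can differ in direction, since only TPM corrects for length and is forced to a fixed sum. Shares of TPM were compared with exact two-sided permutation tests (scipy 1.17.1), adjusted over the 10 shares of a comparison. DESeq2 1.42.0, limma 3.58.1 and the other alternatives are given in the closing section. The edgeR steps were tested on simulated data.

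The 40 genes, the pathway lists and the marker lists were chosen with earlier results of these data known. Genes chosen to be named whatever their p were Aldoc, Ldha, Ldhb, Pkm, Slc2a1, Slc16a1, Pdk2 and Pfkfb3. To these were added the 5 smallest p of each diet and interaction comparison, the 8 smallest p of each region comparison with cortex, and those that went against most of their role. Values are printed for a part of the comparisons only, and for Pkm only as the M2 share and the absence of a call between regions. The labels do not say how the pools were spread over sorting days, and p-values measure the spread between these pools.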

Additional observations from a re-analysis of the deposited data

Results flagged for a closer look

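A library that stood apart from its group by Dixon's test at the 95% level was found in 39 of the 270 groups of member or share values tested (14.4%), and chance gives about 5% of groups. Most of them came from 4 libraries.

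Cortex HFHS 6, a short library, was the highest of its group in Aldoc (31570 CPM), Ldhb (7305 CPM), Eno1 (5495 CPM), Aldoa (3397 CPM), Gapdh (3267 CPM), Tpi1 (887.3 CPM), Ldha (685.3 CPM), Pdhb (429.4 CPM) and Mpc2 (286.6 CPM). The same library was the lowest in Slc16a1 (56.49 CPM) and Pfkfb4 (5.056 CPM). Cortex SC 6, the shortest, was the highest in Ldhb (6618 CPM) and Mpc2 (438.9 CPM) and the lowest in Adpgk (5.731 CPM) and Pfkfb2 (3.944 CPM).

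Hypothalamus HFHS 2 was the highest of its group in Aldoc (7429 CPM), Ldhb (1211 CPM), Pfkm (489.5 CPM), Pgam1 (459.9 CPM), Ldha (366.7 CPM), Gpi1 (365.5 CPM) and Pdk2 (311.1 CPM). Hypothalamus SC 6 was the highest in Eno1 (1304 CPM), Gapdh (1291 CPM), Ldhb (712.4 CPM), Tpi1 (306.9 CPM), Mpc2 (63.42 CPM) and Pdhx (45.49 CPM) and the lowest in Hk1 (83.24 CPM). Its share of Pfkp among the phosphofructokinases (23.61%) and of Pfkfb3 among the Pfkfb enzymes (20.6%) was the lowest of its group.

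The other cases were single values. Cortex HFHS 3 was the lowest in Bsg (717 CPM), in Pfkm (256 CPM) and in the Pdk2 share (78.1%), and cortex SC 2 in Pdk3 (18.66 CPM). Hippocampus SC 2 was the highest in Pdhx (55.83 CPM) and in the M2 share of Pkm (89.79%). Hk2 reached 10.47% of hexokinase TPM in hippocampus HFHS 4, and the share of Slc16a1 was lowest, at 73.85% of the lactate carriers in hypothalamus SC 1.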

How the results depend on the processing

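No fold change or share that was followed through the alternative runs changed its direction in any of them. Those followed were chosen by a small p or a call in these same data. A kept direction was therefore likely beforehand, and nothing is concluded from it for the other members. The Gapdh differences from cortex on HFHS in hypothalamus and hippocampus, which were not called, were not followed in this way. Their values without the short library cortex HFHS 6, the highest of its group in Gapdh, are not given here. Mpc2, not called in hippocampus against cortex on HFHS (-0.53, adjusted p = 0.352), was at 0.17 without the 3 short libraries and 0.20 without cortex HFHS 6. The count of members past the threshold in cortex between diets was 0 in edgeR, 1 in DESeq2, 3 in limma voom with sample quality weights and 3 without the 3 short libraries. Of all genes, 0.0%, 2.82%, 2.91% and 2.86% were called. For the interaction of hypothalamus against cortex it was 0, 2, 3 and 4 in the same order, beside 0.0%, 0.654%, 2.77% and 2.23% of all genes. Between hypothalamus and hippocampus on SC it was 5 (10.0% of all genes), and 14 in voom, 2 with no filter on low counts, 3 with counts made from TPM and 11 without the short libraries (14.7%). On HFHS it was 3 (6.42%), and 6 in voom, 0 with no filter and 5 without the short libraries (11.3%). The shares of all genes in the voom, unfiltered and TPM fits of these 2 comparisons are not given here. The count of shares past the threshold between diets in cortex was 1, and 0 without the short libraries, where 5 against 5 allows no smaller exact permutation p than 0.00794. Beyond what such a design allows, the cause of these changes was not tested.

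Leaving out each library in turn gave 0 members between diets in each region, 0 to 3 for the interaction of hypothalamus against cortex and 0 for the other interactions. Between regions it gave 26 to 28 members for hypothalamus against cortex on SC and 16 to 20 on HFHS, 18 to 25 for hippocampus against cortex on SC and 10 to 18 on HFHS, and 2 to 5 for hypothalamus against hippocampus on SC and 0 to 3 on HFHS. Shares past the threshold numbered 4 to 8 and 4 to 7 for hypothalamus against cortex, 2 to 4 and 5 to 7 for hippocampus against cortex, and 0 to 2 for hypothalamus against hippocampus on SC. The Pfkfb3 difference in cortex stayed between 19.8 and 22.9 percentage points, with an adjusted p of 0.0433 each time.

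Same-numbered libraries pair where the correlation of their deviations is over 0.1 in every pair. Between diets it ran from 0.014 to 0.119 in hypothalamus (1 of 5 pairs over 0.1), from 0.069 to 0.477 in hippocampus (4 of 5) and from -0.043 to 0.546 in cortex (5 of 6), so that none was taken as paired. Of the HFHS libraries, 2 of 5, 3 of 5 and 4 of 6 correlated best with the SC library of their own number, and of the SC libraries 2 of 5, 4 of 5 and 3 of 6 with the HFHS library of theirs. Between regions on SC, 2 of 6 pairs were over 0.1 for hypothalamus and cortex, 3 of 5 for hippocampus and cortex and 1 of 5 for hypothalamus and hippocampus. On HFHS those counts were 1 of 5, 2 of 6 and 2 of 5, so that no regions were taken as paired. As an alternative, a replicate block joined same-numbered libraries of the 2 diets in the diet fits, and of the regions within a diet in the model of 6 groups. With the replicate block, 2 members passed between diets in cortex, Gapdh (-0.82, adjusted p = 0.0477) and Pfkfb3 (0.77, adjusted p = 0.0382), with 2.31% of genes called. For the interaction of hypothalamus against cortex 4 passed (Gpi1, Tpi1, Gapdh and Ldha, beside 1.39% of genes), and between hypothalamus and hippocampus 8 on SC (11.7%) and 6 on HFHS (12%).

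At 47578560 or more estimated reads a library, depth bears most on the least abundant members, such as Hk2. The groups of 5 to 7 pools limit what the tests can call, and sorting column and region cannot be told apart.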
